A study of Mus musculus with 6 samples.

Results

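Recurrent open regions that lie away from the ends of protein-coding genes were examined in mouse pancreatic islets profiled by ATAC-seq, an assay that tags accessible DNA with the transposase Tn5. The regions were selected by merging the peaks of 6 libraries wherever they overlapped by at least 1 bp. A merged region was kept if it held peaks of at least 3 libraries and if its midpoint lay over 1000 bp from every start and end of a protein-coding gene in the RefSeq gene table of GRCm38.p6. Of 13633 merged regions, 1450 were called in at least 3 libraries, 1095 of these lay at a gene end, and 355 were away from gene ends. The 355 were separated by the number of libraries with a peak into 262 candidate distal elements, called in 3 or 4 libraries (193 and 69), and 93 regions called in 5 or 6 libraries (45 and 48), here named repeat-like regions after the working name of their class. The peak calls chose the members, so counts of calls are given as descriptions with no test. No repeat annotation was used here, and whether a region is a repeat was not tested.

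The study asked, per its title, whether more Acsl4 in the absence of Rictor drives loss of beta cell identity through FoxO1 and reactive oxygen species. Rictor is the subunit that defines mTORC2, a kinase complex, and Acsl4 is an acyl-CoA synthetase that prefers polyunsaturated fatty acids. All libraries came from islets of 16-week-old mice, about 50 islets each, exposed to an adenovirus for 48 h ex vivo. The group control-GFP held 2 libraries from wildtype islets (labelled Con) given Ad-GFP, knockout-GFP held 2 from βRicKO islets given Ad-GFP, and knockout-Acsl4 held 2 from βRicKO islets given Ad-Acsl4. βRicKO denotes loss of Rictor in beta cells. The Cre driver and the alleles of the control mice are not given in the sources used here. An islet also holds endocrine cells other than beta cells. Whether the replicates of a group were separate mice is not stated in the labels. P-values thus measure the spread between these samples only, and that spread may be technical.

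The peak lists did not check the labels. Rictor carried no peak in any library. The library labelled control-GFP 1 had 7 peaks over Acsl4, knockout-GFP 1 had 6, and the other 4 libraries, those with Acsl4 virus included, had 0. The Acsl4 peaks would go against the labels if they came from Acsl4 virus, and their source was not tested here. Every group comparison holds for the libraries as labelled. All library names are labels. None of these peaks belonged to a recurrent region. The lists held 4442 and 1628 peaks (control-GFP 1 and 2), 2206 and 4257 (knockout-GFP 1 and 2), and 525 and 5874 (knockout-Acsl4 1 and 2). The sources used here give no read depth, and list length need not follow it. The longest list, knockout-Acsl4 2, had the lowest top score, 2869. Of 30 beta cell identity genes, 4, 0, 0, 3, 0 and 0 carried a peak at a gene end in these libraries, in the same order. The other endocrine list had 0 of 10 in each library, and the endothelial, stromal and immune list also had 0 of 10 in each. The acinar and ductal list had 0 of 10 except for 1 in the library labelled knockout-GFP 2. The lists therefore hold little with which to check the islet label.

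Distal regulatory elements, or enhancers, are stretches of open DNA bound by transcription factors that act on genes over a distance, and in islets many of the elements that set beta cell identity are of this kind. A gene can also be transcribed from several promoters, so that an open region inside a gene may be a further start rather than an enhancer. Short-read ATAC-seq in mouse additionally yields very tall peaks over satellite DNA, ribosomal DNA and nuclear copies of mitochondrial DNA, where reads from many copies pile up on the few copies that the assembly holds.

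The largest annotated group among the candidate distal elements was not distal. Of the 252 candidates that could be compared with the RefSeq table of transcription starts, 91 (36.1%, exact 95% interval 30.2 to 42.4) lay within 1000 bp of an annotated protein-coding start. In each case the start was of a gene that contains the region, which the distance rule fixes in advance. A further 21 (8.33%, 5.23 to 12.5) lay near the start of a long non-coding RNA (lncRNA), 7 (2.78%, 1.12 to 5.64) near the end of another non-coding gene or pseudogene, and 133 (52.8%, 46.4 to 59.1) near none of these. The start table holds 79.9% of protein-coding genes, so these shares are lower limits for starts. The 10 candidates and 6 repeat-like regions on a chromosome for which it holds no start were not analysed here for starts. Intervals on shares of regions are exact binomial and cover counting error only.

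The starts show what such regions look like in sequence. Each line below is a RefSeq start window of GRCm38.p6, running from 250 bases before to 50 bases after the start on the gene's own strand, and is shown because a recurrent region lies at that start. The Wdr17 window (a WD repeat protein, minus strand, chr8:54724319-54724618) lies at one of the highest-scoring coding starts. The windows of Nr3c2 (the mineralocorticoid receptor, plus strand, chr8:76902080-76902379), Sp2 (a zinc finger factor of the Sp family, minus strand, chr11:96977639-96977938) and Lrif1 (a nuclear receptor-interacting chromatin protein, plus strand, chr3:106721432-106721731) lie at regions called in 4 libraries. Gpx4 (plus strand, chr10:80053315-80053614) belongs to the antioxidant list, and Edem1 (plus strand, chr6:108828391-108828690) acts in ER-associated degradation. Snhg8 (minus strand, chr3:123508287-123508586) is a lncRNA, and Smg9 (plus strand, chr7:24399378-24399677) has the single coding start among the repeat-like regions. Capitals mark every match, on either strand, to the GC box letters GGGCGG, the ETS letters CCGGAAG, the NRF1 letters GCGCATGC, the CRE letters TGACGTCA and the NFY letters CCAATCA.
Wdr17: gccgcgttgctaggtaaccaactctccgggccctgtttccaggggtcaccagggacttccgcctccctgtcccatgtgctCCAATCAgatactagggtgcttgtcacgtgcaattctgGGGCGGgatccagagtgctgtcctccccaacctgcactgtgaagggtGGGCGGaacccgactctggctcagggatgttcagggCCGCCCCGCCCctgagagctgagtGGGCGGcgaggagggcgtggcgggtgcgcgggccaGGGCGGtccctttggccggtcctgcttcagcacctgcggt
Nr3c2: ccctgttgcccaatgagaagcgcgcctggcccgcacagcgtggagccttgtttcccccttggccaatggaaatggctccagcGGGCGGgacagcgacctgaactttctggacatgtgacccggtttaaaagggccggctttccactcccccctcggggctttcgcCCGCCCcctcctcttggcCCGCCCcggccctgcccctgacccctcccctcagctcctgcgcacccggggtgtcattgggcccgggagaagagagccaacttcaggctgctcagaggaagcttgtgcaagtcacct
Sp2: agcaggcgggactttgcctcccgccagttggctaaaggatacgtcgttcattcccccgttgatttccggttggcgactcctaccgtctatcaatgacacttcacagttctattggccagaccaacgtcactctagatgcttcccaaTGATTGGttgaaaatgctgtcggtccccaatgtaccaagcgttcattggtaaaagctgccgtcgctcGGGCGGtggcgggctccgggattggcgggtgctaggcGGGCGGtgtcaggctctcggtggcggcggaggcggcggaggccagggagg
Lrif1: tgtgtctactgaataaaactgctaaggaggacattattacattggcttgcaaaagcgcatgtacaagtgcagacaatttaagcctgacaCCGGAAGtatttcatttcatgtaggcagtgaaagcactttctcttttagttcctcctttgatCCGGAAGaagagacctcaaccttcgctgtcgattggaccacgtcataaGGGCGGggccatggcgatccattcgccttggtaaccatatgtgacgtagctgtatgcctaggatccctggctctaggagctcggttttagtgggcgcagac
Gpx4: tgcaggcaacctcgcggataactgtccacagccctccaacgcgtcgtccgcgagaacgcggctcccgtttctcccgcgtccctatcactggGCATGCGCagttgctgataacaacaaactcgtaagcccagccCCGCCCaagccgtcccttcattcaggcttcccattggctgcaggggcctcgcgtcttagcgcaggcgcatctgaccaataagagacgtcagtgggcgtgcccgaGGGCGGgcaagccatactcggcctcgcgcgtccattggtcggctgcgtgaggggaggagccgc
Edem1: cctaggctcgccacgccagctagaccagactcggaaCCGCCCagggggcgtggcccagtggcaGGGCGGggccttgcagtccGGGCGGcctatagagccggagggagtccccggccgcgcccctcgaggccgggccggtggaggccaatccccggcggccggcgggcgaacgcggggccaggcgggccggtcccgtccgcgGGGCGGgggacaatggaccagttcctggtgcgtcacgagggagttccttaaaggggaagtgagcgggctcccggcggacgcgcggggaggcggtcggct
Snhg8: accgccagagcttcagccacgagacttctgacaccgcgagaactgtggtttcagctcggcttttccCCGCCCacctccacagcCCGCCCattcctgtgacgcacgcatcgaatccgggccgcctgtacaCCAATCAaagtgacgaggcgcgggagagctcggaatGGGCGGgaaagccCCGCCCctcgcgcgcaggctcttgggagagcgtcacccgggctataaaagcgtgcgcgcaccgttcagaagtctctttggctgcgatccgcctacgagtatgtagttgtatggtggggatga
Smg9: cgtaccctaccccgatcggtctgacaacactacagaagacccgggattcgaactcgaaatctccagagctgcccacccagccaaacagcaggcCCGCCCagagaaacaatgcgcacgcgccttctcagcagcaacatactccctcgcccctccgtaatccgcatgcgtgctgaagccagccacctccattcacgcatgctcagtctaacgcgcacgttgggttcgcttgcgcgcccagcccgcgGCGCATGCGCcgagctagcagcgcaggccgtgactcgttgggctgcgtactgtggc

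GC boxes, the letters bound by Sp family factors, were the most frequent capitals in these windows. The Wdr17 window held 6 GC boxes and 1 NFY match at a GC content of 66.3%, the Edem1 window 4 GC boxes at 76.0%, the Snhg8 window 4 GC boxes and 1 NFY match at 62.0%, and the Gpx4 window 2 GC boxes and 1 NRF1 match at 64.3%. Lrif1 stood apart with 1 GC box, 2 ETS matches and a GC content of 47.7%. The Smg9 window held 1 GC box and 2 NRF1 matches at 63.0%. A match is a description of the letters and does not show that a factor binds there.

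Over all 156 start windows near candidates, 82.7% (75.8 to 88.3) held a GC box, against 79.5% (77.2 to 81.6) of 1351 windows near gene-end regions called in 3 or 4 libraries and 35.6% (35.1 to 36.1) of all 32816 windows. Median GC content was 65.7%, 64.3% and 52.7%, and the median ratio of observed to expected CpG was 0.827, 0.855 and 0.383. The intervals of the first 2 sets overlapped for GC boxes, and the difference between them was not tested. ETS letters were in 15.4% (10.1 to 22.0) of candidate windows, 18.1% of gene-end windows and 8.85% of all. NFY letters were in 14.1% (9.05 to 20.6), 20.5% and 7.80%. NRF1 letters were in 5.13%, 7.48% and 2.71%, and CRE letters in 3.21%, 4.29% and 1.79%. The CTCF letters AGGGGGC or AGGTGGC, a part of the motif of the insulator protein CTCF that also occurs in GC-rich DNA, were in 32.1% (24.8 to 40.0), 24.9% (22.7 to 27.3) and 16.0%.

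Letters of factors that mark islet enhancers were rare in the same windows. FOX letters (TGTTTAC or TATTTAC, of the family of FoxO1 and Foxa2) were in 1 of 156 candidate windows (0.641%, 0.0162 to 3.52), 3.18% of gene-end windows and 6.54% of all windows. Homeodomain letters (CTAATTA or TTAATTA, of the type read by Pdx1 and Nkx6-1) and RFX letters (GTTGCCAT or GTTGCTAT) were also in 1 candidate window each. Gene-end windows held them in 0.962% and 1.70% of cases, and all windows in 4.28% and 2.24%. The E-box CAGATG, of the type read by Neurod1, was in 5.77%, 8.36% and 17.2%, and the MAF letters TGCTGAC in 3.21%, 2.66% and 4.67%. AP-1 letters (TGANTCA) were in 2.56%, 3.85% and 7.81%, and TEAD letters (GGAATG) in 9.62%, 9.10% and 14.7%. All motifs were searched on both strands, and the part of GC content in these shares was not tested. The 133 candidates without an annotated start have no window in the table, so their letters were not analysed here.

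**Figure D1:**
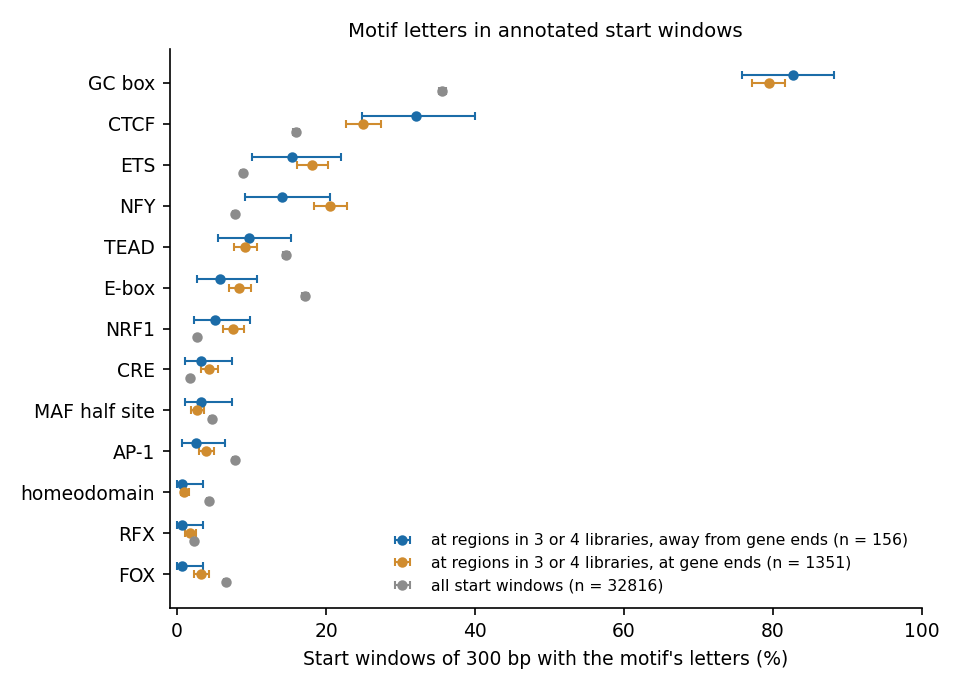
Share of 300 bp start windows that hold each motif's letters on either strand, with exact 95% intervals, for starts at candidate distal elements (blue), starts at gene-end regions called in 3 or 4 libraries (orange) and all start windows (grey). GC box letters were in 82.7% of candidate windows and 35.6% of all windows, and FOX letters in 0.641% and 6.54%.

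Coding starts at candidates were spread over genes of many kinds, and the following were picked after their values were seen. Whether such a start is the main start of its gene or a further one was not tested. Scores are the authors' own values per peak, read as a −log10 q-value, and are given here as the percentile of a peak within its own list. The regions were small and close to the start, with a median distance of 134 bp (exact 95% interval 116.5 to 164.5) from the midpoint to the start. The start lay inside the region in 69 of 91 cases. The nearest start or end of any protein-coding gene in the gene table lay a median of 2821 bp from the midpoint. Of these 91 regions, control-GFP 1 and 2 called 91 and 12 (against 32.4% and 11.9% of all merged regions), knockout-GFP 1 and 2 called 84 and 90 (against 16.1% and 30.9%), and knockout-Acsl4 1 and 2 called 11 and 4 (against 3.69% and 43.1%).

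Among genes of lipid, redox and energy metabolism, Gpx4, which reduces lipid hydroperoxides and is the only member of the antioxidant list with a recurrent region away from its ends, had one at chr10:80053404-80053653, 36.5 bp from an internal start. Its percentile was 55.0 in control-GFP 1, 42.3 in knockout-GFP 1 and 70.1 in knockout-GFP 2, with no peak in the other 3 libraries. Lipe, the hormone-sensitive lipase, had a mean percentile of 45.7, Slc27a1, a fatty acid transport protein, 63.8, Cds2, which makes CDP-diacylglycerol, 74.3, and Insig2, which holds back SREBP processing in the ER, 57.9. Por, the cytochrome P450 reductase, had 54.2, Nadk, the NAD kinase, 48.9, and Adh5, which clears S-nitrosoglutathione, 40.7. These 7 regions were each called in 3 libraries. None of the 16 fatty acid metabolism genes, Acsl4 included, was a host or nearest gene of any of the 355 regions.

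Genes of ER and membrane traffic included Edem1, a lectin of ER-associated degradation, with percentiles of 92.2 (control-GFP 1), 85.9 (knockout-GFP 1) and 75.9 (knockout-GFP 2). Dnajc1, an ER chaperone partner, had a mean of 54.5, and Mesd, a chaperone of LRP receptors, 67.6 in 4 libraries. Vapa, an anchor of ER contact sites (68.9 in 4 libraries), Osbpl2, an oxysterol-binding protein (67.9), and Esyt2, an extended synaptotagmin (62.7), act where the ER touches other membranes. Tbc1d14, a Rab GAP-domain protein of autophagy, had 47.0 in 4 libraries.

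Regulators of transcription and chromatin were also present. Nr3c2, the mineralocorticoid receptor, had percentiles of 89.0 (control-GFP 1), 92.5 (control-GFP 2), 64.9 (knockout-GFP 1) and 86.2 (knockout-GFP 2). Sp2 had 86.5 (control-GFP 1), 83.4 (control-GFP 2), 75.1 (knockout-GFP 1) and 79.4 (knockout-GFP 2). Both regions were called in all 4 GFP virus libraries and in neither Acsl4 virus library, with the lowest value in knockout-GFP 1. Hdac4, a class IIa histone deacetylase, had a mean of 81.6, Ing1, a reader of histone methylation, 72.1, Pcgf5, a Polycomb ring finger protein, 67.3, Sin3a, the scaffold of a deacetylase complex, 66.8, Rfx1, a winged-helix factor, 58.0, and Cdyl, a chromodomain protein, 41.7. Stag1, a cohesin subunit, had 63.6 in 4 libraries, Sgo1, the protector of centromeric cohesin, 63.0 in 4, and Wapl, the cohesin release factor, 38.4 in 3.

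Genes of RNA binding, splicing or decay picked in the same way were Rbm15 (mean percentile 88.6), Bclaf1 (77.2), Hnrnpl (77.1, 4 libraries), Hnrnpul1 (68.5), Hnrnph1 (58.3, 4 libraries), Srrm2 (53.7), Ccnl1 (49.4), Cnot8 (44.9), Nktr (44.0), Larp4 (34.6) and Scaf4 (29.8). These groupings by function rest on no fixed list, and none was tested. Signalling and survival genes included Ppm1b, a protein phosphatase (89.9), Pkd1, the polycystin gene (85.2), Rassf1, a tumour suppressor with a well-known internal promoter (61.6, 4 libraries), Rps6ka2, a ribosomal S6 kinase (65.7), Arrdc3, an arrestin-domain adaptor (59.8), and Bcl2l1, which encodes BCL-XL (32.2). The highest mean at a coding start was 90.3, at Tsga10, a testis and centrosome protein, 20 bp from the start, and the lowest was 22.9, at Zbtb11. The median over coding-start candidates was 61.0 (55.8 to 65.7), and single percentiles ran from 0.816 (knockout-GFP 1) to 95.9 (control-GFP 1).

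Non-coding starts had a median percentile of 57.3 (40.8 to 70.0) over 21 regions. They were led by Gm26901 (92.0), the snoRNA host Snhg8 (90.5) and Chaserr, the lncRNA beside Chd2 (87.4), and included the snoRNA host Snhg5 (47.7). Gm26901 had percentiles of 94.8 (control-GFP 1), 90.4 (knockout-GFP 1) and 90.8 (knockout-GFP 2). Its region, chr1:7397611-7398381, was also wide, at 771 bp.

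Candidates with no annotated start had a smaller median width and held most of the highest ranks. Their median region width was 349 bp (exact interval 322 to 387), against 418 bp (386 to 463) at coding starts, and 57 of 133 (42.9%, 34.3 to 51.7) lay inside a protein-coding gene body. Of the 22 candidates with a mean percentile of 90 or more, 20 could be compared with starts, and 17 of these had none. Their peaks were narrow, with a median mean width of 167 bp, against 271.5 bp for the other 240 candidates. Among the other 240, of which 232 could be compared, 90 lay at a coding start.

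The highest candidate was chr9:24542025-24542160, 136 bp wide and 14954.5 bp from the nearest end of Dpy19l2. Its percentile was 99.6 in control-GFP 1, 99.5 in knockout-GFP 2 and 97.0 in knockout-Acsl4 1. The second was chr16:10975073-10975248 inside Litaf, a lysosomal protein gene induced by lipopolysaccharide, with 99.4, 99.3 and 95.4 in the same libraries. Both were thus called in a library with 525 peaks while absent from lists of 2206 and 5874. A region of 133 bp inside Cdk5rap2, a centrosomal protein (chr4:70378122-70378254), was called in 4 libraries with 99.1 (control-GFP 1), 98.2 (knockout-GFP 1), 99.2 (knockout-GFP 2) and 95 (knockout-Acsl4 1).

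Candidates called in all 4 GFP virus libraries and in neither Acsl4 virus library were led by chr16:11143913-11144310, inside Zc3h7a, a CCCH zinc finger gene. Its percentile was 97.1 and 96.9 in the control-GFP libraries and 97.4 and 97.7 in the knockout-GFP libraries. The next, chr17:70963668-70963837, lay 10210.5 bp from an end of Myl12b, a myosin light chain, with 97.9, 96.3, 96.5 and 98.1. A region inside Atrnl1, an attractin-like gene, had values between 85.0 and 97.0. The control and knockout percentiles overlapped at Myl12b and Atrnl1, while at Zc3h7a both knockout values lay above both control values, by less than 1 percentile.

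Other candidates at the top were chr8:15519836-15520093 (mean 96.2), 372574 bp from Csmd1, chr13:99790920-99791131 (95.4), 107458 bp from Cartpt, the gene of a peptide also found in islets, chr14:19419290-19419419 (95.5) and 4 regions between 3020467 and 3028856 on chromosome 9 (94.2 to 96.8). The last 5 lay beside repeat-like regions. In all, 27 of 262 candidates (10.3%, 6.90 to 14.6) lay within 100 kb of a repeat-like region, against 5 of 1061 gene-end regions called in as many libraries (0.471%, 0.153 to 1.10). Of these 27, 18 lay in the first 3.5 Mb of their chromosome, where the numbering of mouse chromosomes begins with an unassembled stretch at the centromere. The library labelled knockout-Acsl4 1 called 17 of these 27 (63.0%, 42.4 to 80.6), against 22.5% of all 262 candidates and 3.69% of all merged regions. Without them, 111 candidates had no annotated start, and 50 of those lay inside a gene body.

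**Figure D2:**
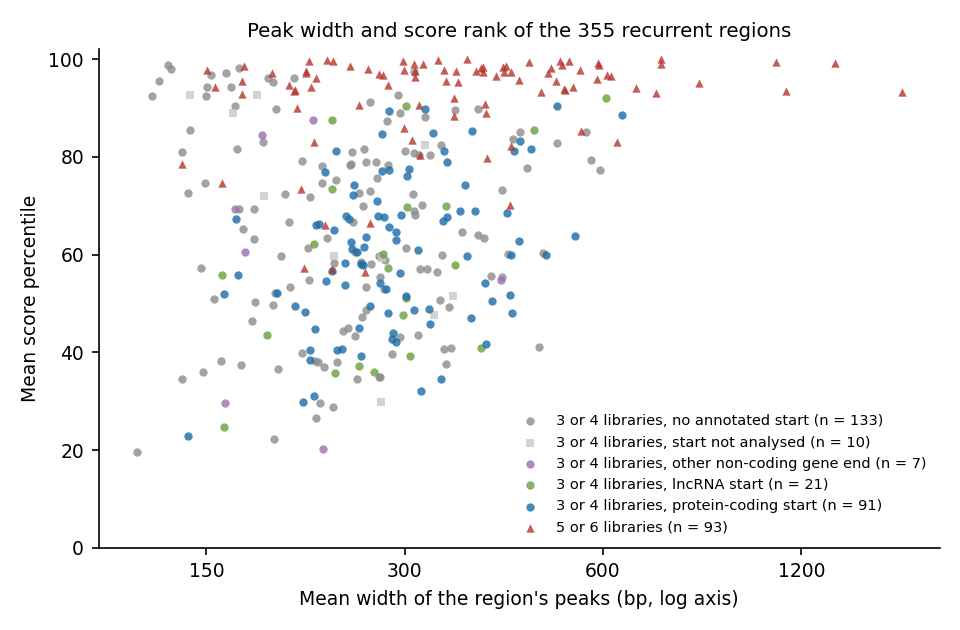
Mean width of the peaks in each region (horizontal, log axis) against the mean percentile of their scores within their lists (vertical), 1 symbol per region. Repeat-like regions (red triangles) fill the top at all widths, coding-start candidates (blue) lie between percentiles of 22.9 and 90.3, and candidates without an annotated start (grey) reach the top left corner with narrow peaks.

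Position varied with the number of libraries. Among regions away from gene ends, the share at a protein-coding start was 3.28% (2.90 to 3.70) in 1 library, 35.8% (30.8 to 41.0) in 2, 38.7% (31.7 to 46.1) in 3, 28.8% (18.3 to 41.3) in 4, 2.5% (0.0633 to 13.2) in 5 and 0% (0 to 7.55) in 6. The share inside a gene body, where the rule places every region at a coding start, was 42.6%, 66.8%, 60.6%, 59.4%, 31.1% and 14.6%. The median percentile was 36.5, 46.1, 59.7, 71.0, 93.6 and 97.6 in the same order. Regions found in a single library had a coding start in 17.4% of cases for control-GFP 1 and 22.7% for knockout-GFP 2, against 0.283% in control-GFP 2 and 0.452% in knockout-Acsl4 2. The list labelled knockout-Acsl4 2 held 5307 of the 7920 such regions that could be compared with starts.

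**Figure D3:**
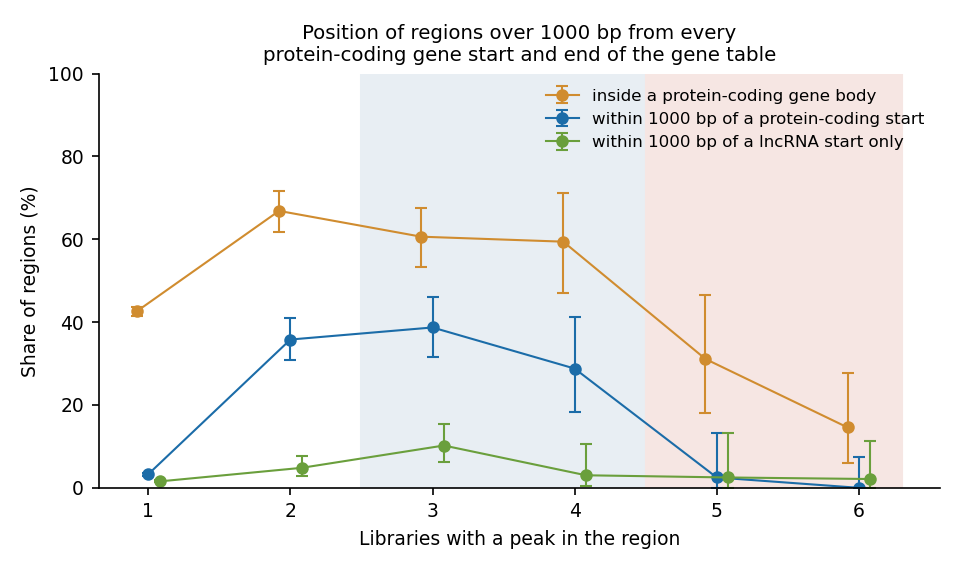
Share of regions away from gene ends that lie inside a gene body (orange), within 1000 bp of a protein-coding start (blue) or only of a lncRNA start (green), by the number of libraries with a peak, with exact 95% intervals. The blue shading marks the candidates, of which 38.7% (3 libraries) and 28.8% (4 libraries) had a coding start, and the red shading the repeat-like regions, of which 2.5% (5) and 0% (6) did.

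The repeat-like regions had the highest scores of the study. Their median percentile was 96.2 (94.3 to 97.3), against 62.4 (59.7 to 66.7) for candidates, and 74 of 93 had a mean of 90 or more. The 34 gene-end regions called in 5 or 6 libraries had a median percentile of 74.5 (71.1 to 80.1). These were also wider, with a median of 568 bp (500 to 617), and 38.2% (22.2 to 56.4) lay inside a protein-coding gene. Of the 20 peaks with the highest score in each list, 17 to 20 fell in the 93 repeat-like regions. The median width of the repeat-like regions was 462 bp (409 to 555) and the widest was 3229 bp. Only 21 (22.6%, 14.6 to 32.4) lay inside a protein-coding gene, and the median distance to a gene end was 112256 bp, against 8494 bp for candidates. In the first 3.5 Mb of a chromosome lay 30 of 93 (32.3%, 22.9 to 42.7), against 21 of 262 candidates (8.02%, 5.03 to 12.0) and 3 of 1061 gene-end regions called in 3 or 4 libraries (0.283%).

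Repeat-like regions came in clusters. Within 100 kb of another lay 36 of 93 (38.7%, 28.8 to 49.4). The largest cluster held 17 regions over 38217 bp at the start of chromosome 9, chr9:3000006-3038222, with a median percentile of 98.8. The midpoint of its last region lay 627 bp from Mir101c, a microRNA gene. Others held 4 regions at chr17:13550707-13655257, 3 at chr14:19415726-19419118, and 2 at chr11:3101085-3104194, where 6 candidates lay within 100 kb. Of those 6, 3 were inside Sfi1, a centrosomal protein gene, with mean percentiles from 47.3 to 60.4.

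The region with the highest score in every list was chr2:98666248-98667327, 1080 bp wide. Its scores, as deposited, were 10835 and 7959 in the control-GFP libraries, 10215 and 10557 in the knockout-GFP libraries, and 8675 and 2869 in the knockout-Acsl4 libraries. Scores depend on the depth of each list and are not compared between lists. A neighbour on the same chromosome, chr2:98662236-98662476, had a lowest percentile of 99.2, in the library labelled knockout-Acsl4 1. For chr9:35305216-35305591 the lowest was 99.8 and for chr12:3109877-3110117 it was 99.6, in the same library. These regions stood at the top of all 6 lists.

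A pair of regions at chr17:39843143-39848786 overlapped both ends of Rn18s-rs5, a pseudogene related to ribosomal RNA. The second of the pair, chr17:39848033-39848786, had its midpoint 207.5 bp from an end and had percentiles of 98.2 and 97.0 (control-GFP), 96.6 and 98.7 (knockout-GFP), was lowest in knockout-Acsl4 1 and had no peak in knockout-Acsl4 2. A candidate of 179 bp lay between them, 222 bp from the other end, with 39.5 and 91.4 in the knockout-GFP libraries and 77.0 in knockout-Acsl4 1. Other non-coding neighbours were Gm40237, a lncRNA that starts near the region chr4:118547833-118548687 (6 libraries, mean 96.7), Gm40034 (95.8) and Gm41530 (93.8). A single repeat-like region inside a gene was among the 10 highest, at chr6:103649069-103649292 in Chl1, a neural adhesion molecule, in 5 libraries (99.0 to 99.9).

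The class was not uniform. Of the 93 regions, 10 had a mean percentile under 80, down to 56.5. The region at the Smg9 start, a gene of nonsense-mediated mRNA decay, was one of them, with 94.3 (control-GFP 1), 69.3 (control-GFP 2), 77.7 (knockout-GFP 1), 56.8 (knockout-GFP 2) and 33.7 (knockout-Acsl4 1). Its mean of 66.4 lay within the range of the coding-start candidates. Its value was high in control-GFP 1 and low in knockout-Acsl4 1.

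Calls differed widely between libraries of the same group. The library labelled control-GFP 1 called 250 of 262 candidates (95.4%, 92.1 to 97.6, against 32.4% of all merged regions), and that labelled control-GFP 2 called 54 (20.6%, 15.9 to 26.0, against 11.9%). The library labelled knockout-GFP 1 called 224 (85.5%, 80.6 to 89.5, against 16.1%), and that labelled knockout-GFP 2 called 250 (95.4%, 92.1 to 97.6, against 30.9%). The library labelled knockout-Acsl4 1 called 59 (22.5%, 17.6 to 28.1, against 3.69%), and that labelled knockout-Acsl4 2 called 18 (6.87%, 4.12 to 10.6, against 43.1%). Libraries control-GFP 1, knockout-GFP 1 and knockout-GFP 2 together, and no other, accounted for 146 candidates, and the same 3 with either control-GFP 2 or knockout-Acsl4 1 for 30 and 28 more.

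The repeat-like regions were called in 92, 91, 92, 93 and 92 of 93 in the first 5 libraries and 53 (57.0%, 46.3 to 67.2) in that labelled knockout-Acsl4 2. Their class asks for 5 or 6 calls, so most of these counts were set by the rule. Of all merged regions, the libraries called 32.4%, 11.9%, 16.1%, 30.9%, 3.69% and 43.1%, in the same order. Calls of candidates were also counted by position. Of 133 candidates without an annotated start, 41 (30.8%, 23.1 to 39.4) were in the library labelled knockout-Acsl4 1 and 34 (25.6%, 18.4 to 33.8) in that labelled control-GFP 2, against 3.69% and 11.9% of all merged regions. Of the 91 at coding starts, 11 (12.1%, 6.19 to 20.6) and 12 (13.2%, 7.0 to 21.9) were. The share of 13.2% was near that of all regions, the intervals for control-GFP 2 overlapped, and the difference between the sets was not tested. Both libraries also had shorter lists, and the part of list length in this was not tested.

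**Figure D4:**
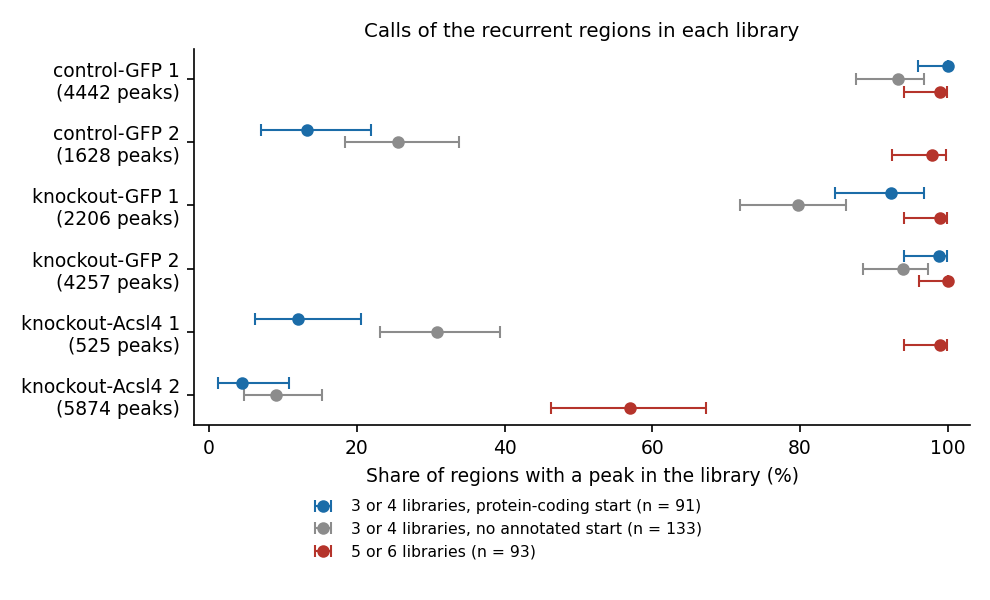
Share of 3 sets of regions with a peak in each library, with exact 95% intervals and the length of each list beside its name. Repeat-like regions (red) lie between 97.8% and 100% in 5 libraries and at 57.0% in that labelled knockout-Acsl4 2, while coding-start candidates (blue) are above 90% in 3 libraries and below 14% in the other 3.

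Knockout-GFP against control-GFP addresses the loss of Rictor. Among candidates, 5 had a peak in both libraries of knockout-GFP and none in control-GFP (1.91%, against 1.72% of all merged regions), and 0 had the reverse pattern (against 0.183%). The 5 were chr10:11492076-11492227, 32487.5 bp from Epm2a, the glycogen phosphatase laforin (97.7, 98.2), chr13:9834306-9834491, 41087.5 bp from Chrm3, the M3 muscarinic receptor (96.9, 98.2), the candidate at Rn18s-rs5 (39.5, 91.4), chr14:16212738-16212889 near Oxsm (59.7, 35.6), and chr11:117963325-117963679, 2577 bp from Socs3, a feedback inhibitor of cytokine signalling (44.8, 7.69). Since the rule asks for 3 libraries, each was also called in a knockout-Acsl4 library, here always knockout-Acsl4 1. The share of 1.91% was near that of all regions. These counts became 38 and 0 when control-GFP 1 was left out, 1 and 1 without knockout-GFP 1, 0 and 8 without knockout-GFP 2, and 0 knockout-only regions without knockout-Acsl4 1.

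Knockout-Acsl4 against knockout-GFP addresses the added Acsl4. Both libraries of knockout-GFP, and none of knockout-Acsl4, called 177 candidates (67.6%, against 9.03% of all merged regions), and 0 had the reverse pattern (against 0.0147%). The rule itself favours this pattern, since a region needs 3 of 6 calls and the knockout-Acsl4 lists called 59 and 18 candidates, and nothing is read from it. Examples were the Zc3h7a and Myl12b regions above, and Gm26901. At equal list lengths the count was 10. It was 30, 38 and 32 when control-GFP 1, knockout-GFP 1 or knockout-GFP 2 was left out.

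In the comparison of knockout-Acsl4 with control-GFP, 40 candidates had peaks in both libraries of control-GFP and none in knockout-Acsl4 (15.3%, against 1.91% of all merged regions), and 1 the reverse (0.382%, against 0.022%). That one was chrX:60925817-60926049, 32503 bp from Sox3, with percentiles of 27.9 and 73.7 in the knockout-Acsl4 libraries and 6.15 in knockout-GFP 2. The rule favours the control-only pattern here too, since the knockout-Acsl4 lists called 59 and 18 candidates. A region called in both libraries of a group also reaches 3 calls more easily, so nothing is read from either share. The control-only count was 7 at equal list lengths, 176 when control-GFP 2 was left out and 85 without knockout-Acsl4 1. No repeat-like region had any of these 6 patterns, which a region with 5 or 6 calls cannot have. The 3 comparisons share libraries.

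Score ranks within lists were not used by the rule and could be tested over libraries. The median percentile of the called candidates was 70.5 and 72.8 in the control-GFP libraries, 60.8 and 70.1 in the knockout-GFP libraries and 65.1 and 65.8 in the knockout-Acsl4 libraries. Group means were 71.6 ± 1.64, 65.4 ± 6.59 and 65.5 ± 0.479 (SD, n = 2 each). The difference was −6.19 for knockout-GFP minus control-GFP (two-sided exact permutation p = 0.333), 0.0444 for knockout-Acsl4 minus knockout-GFP (exact permutation p = 1) and −6.15 for knockout-Acsl4 minus control-GFP (exact permutation p = 0.333). With 2 libraries against 2 the smallest exact p is 0.333, so no difference could pass a threshold. The groups control-GFP and knockout-GFP did not overlap, nor did control-GFP and knockout-Acsl4, while the knockout-Acsl4 values lay between the 2 knockout-GFP values. Each median is over different regions, from 18 to 250 of them. At equal list lengths all 3 differences turned in direction, to 9.14, −7.67 and 1.48. The first also turned without control-GFP 1 (0.891) or knockout-GFP 1 (0.439), and the second without control-GFP 1, knockout-GFP 1, knockout-GFP 2 or knockout-Acsl4 1 (−13.5, −13.8, −14.6 and −2.73).

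**Figure D5:**
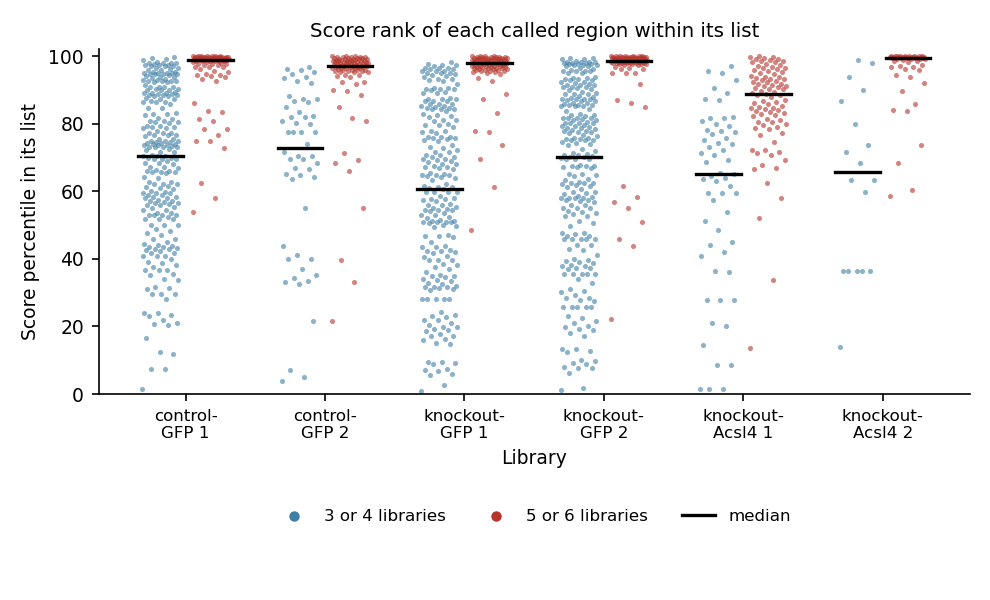
Score percentile, within its own list, of every candidate (blue) and repeat-like region (red) called in each library, with medians as black lines. Candidate medians run from 60.8 to 72.8 and repeat-like medians from 88.7 (knockout-Acsl4 1) to 99.3 (knockout-Acsl4 2).

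The regions were also set against lists of genes of islet function and of the study's pathways. Of 21883 protein-coding genes, 254 (1.16%) contained a candidate or were the nearest gene to one, and 68 (0.311%) a repeat-like region. Among 11 lists of 168 genes, 0 of 30 beta cell identity genes, 0 of 10 other endocrine genes, 0 of 10 dedifferentiation genes, 0 of 20 genes of the mTORC2, AKT and FOXO pathway, 0 of 16 fatty acid genes, 0 of 10 acinar and ductal genes and 0 of 10 endothelial, stromal and immune genes did. At a share of 1.16%, lists of this length would mostly hold none, so nothing is read from the zeros. No list gene was next to a repeat-like region.

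The list genes with a candidate were 1 of 15 ER stress genes, 1 of 16 antioxidant genes and 1 of 16 immediate early genes. Fos, the immediate early AP-1 subunit, was nearest to a pair of candidates on either side of the gene. One, chr12:85455227-85455555, lay 18499 bp away, inside the lncRNA gene Gm38543, with percentiles of 76.4 in control-GFP 1, 76.0 in knockout-GFP 1 and 74.3 in knockout-GFP 2. The other, chr12:85485976-85486181, lay 8804.5 bp away with 42.5, 16.0 and 53.5 in the same 3 libraries. The first was level over the libraries and the second was lowest in knockout-GFP 1. The candidate nearest to Dnajb9, an ER co-chaperone, was 220006 bp away and had the lowest mean of all candidates, 19.6. The Gpx4 region is described with its start above.

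The limit of 1000 bp cut through a continuous range of distances. The 3 members nearest to it were regions at Pnrc1 (1016 bp from a gene end, mean percentile 69.8), Rbm15 (1019.5 bp, 88.6) and Iba57 (1037.5 bp, 81.2). The 3 recurrent regions just within the limit were at Limk1 (995.5 bp, 63.1), Tnrc6c (973 bp, 78.9) and Fstl3 with Prss57 (970.5 bp, 79.5). With a limit of 3000 bp the share of candidates at a coding start was 24.7%, and at equal list lengths it was 11.8%. It was 19.3%, 19.0% and 18.1% when control-GFP 1, knockout-GFP 1 or knockout-GFP 2 was left out, and the number of candidates was 124, 147 and 125. Without both libraries that carry Acsl4 peaks, 4 libraries remained. Then 104 regions were called in 3 or 4 of them, with a median percentile of 94.1, and 2.06% lay at a coding start, while a class of 5 or 6 libraries could not exist.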

How the data were processed

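The 6 islet ATAC-seq libraries fall into 3 groups of 2 by their sample titles. The authors deposited 1 headerless peak list for each library, and peaks were treated as calls on single libraries. Their value was read as a −log10 q-value because the smallest deposited value was 1.30, the −log10 of 0.05. Per the submitters' processing notes, which assign no roles, the tools were MACS2 2.1.1, BWA 0.7.10, SAMtools, FastQC and Trimmomatic. These notes also name the human builds hg38 and GRCh38. The lists carry mouse chromosomes, and 75.5% of the 1450 recurrent regions lay at GRCm38 gene ends, against 6.34% and 4.90% after shifts of 100000 bp in either direction, so GRCm38 was used. Positions are 1-based.

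Peaks of all libraries were merged at an overlap of 1 bp. The distance of each region's midpoint to the starts and ends of 21883 protein-coding genes (RefSeq gene table, GRCm38.p6) decided membership. Starts came from a RefSeq table of 300 bp windows, 1 of which had no gene entry and was left out. This table holds no start on chromosome 18. Several windows of a gene can fall at the same region. A motif search in the regions themselves was planned, also over whole regions, and could not be made because no genome sequence was used here, so the start windows were searched instead. The start classes, the limit of 3.5 Mb and the distance of 100 kb were chosen after seeing the data. A region's percentile in a library is that of its best peak, and its mean is over the libraries that call it.

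The members and the gene lists were chosen with earlier results of these data known. The named regions were the 12 highest candidates, the 10 highest candidates in 4 libraries, the 10 highest repeat-like regions, up to 5 for each group pattern, 3 on either side of the distance limit, up to 20 at list genes and up to 5 at non-coding gene ends, all in order of mean percentile apart from those at the limit. They make 48 regions, of which the text gives those not yet covered by a summary. All 168 list genes matched the gene table. The result of 1 list is not reported here. Group differences of median percentiles were tested by two-sided exact permutation over libraries, and shares and medians have exact 95% binomial intervals. Merging was checked on simulated data. Alternatives were an overlap of 50%, a limit of 3000 bp, the nearest edge, ends of all annotated genes, the better 50% of each list, lists of 525 peaks each, autosomes, replicate blocks and leaving out each library. Leaving out both libraries with Acsl4 peaks was added after seeing the data. Calculations used Python 3.11.15, NumPy 2.4.6, pandas 2.3.3 and SciPy 1.17.1.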

Additional observations from a re-analysis of the deposited data

How the results depend on the processing

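With 2 libraries per group, every count of libraries moves when a list is shortened or left out, and read depth is unknown. With a limit of 3000 bp, 45.4% of candidates lay in gene bodies, the median candidate width was 359 bp, 24.7% lay at a coding start, 109 regions were in both knockout-GFP and neither knockout-Acsl4 library, and 26 in both control-GFP and neither knockout-Acsl4 library. With the better 50% of each list these became 134 candidates, 53.0% in gene bodies, 29.1% at a coding start, 76 and 24 regions, a repeat-like median percentile of 93.7, and a reversed difference of −5.89 between knockout-Acsl4 and knockout-GFP (exact permutation p = 0.667).

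At equal list lengths there were 54 candidates, 37.0% in gene bodies, with a median width of 301.5 bp and percentile of 70.0, 11.8% at a coding start, and a repeat-like percentile of 91.4. The group patterns became 1 (control-GFP, not knockout-GFP), 1 (knockout-Acsl4, not knockout-GFP), 10 (knockout-GFP, not knockout-Acsl4) and 7 (control-GFP, not knockout-Acsl4). All 3 percentile differences reversed, to 9.14 (knockout-GFP minus control-GFP, exact permutation p = 0.333), −7.67 (knockout-Acsl4 minus knockout-GFP, p = 0.333) and 1.48 (knockout-Acsl4 minus control-GFP, p = 1), so their direction depends on list length. On autosomes the single knockout-Acsl4, not control-GFP region was lost (0). The smallest difference, knockout-Acsl4 minus knockout-GFP, reversed there to −0.0959. With ends of all annotated genes there were 218 candidates, and 143 regions were in both knockout-GFP and neither knockout-Acsl4 library. The nearest edge gave 252 candidates and a difference of −8.31 for knockout-GFP minus control-GFP (exact permutation p = 0.333). An overlap of 50% gave 253 candidates. The ends of all annotated genes, the nearest edge and the overlap of 50% reversed no percentile difference.

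Leaving out each library in turn gave 124 to 290 candidates and 48 to 88 repeat-like regions, since 5 of 5 libraries were then needed. Ranges were 46.0% to 60.8% (candidates in gene bodies), 335.5 to 392 bp (candidate width), 63.0 to 78.4 (candidate percentile), 18.1% to 35.8% (coding start), 14.0% to 21.6%, 460 to 563.5 bp and 96.2 to 98.9 (repeat-like in gene bodies, width and percentile). Patterns ranged from 0 to 38 (knockout-GFP, not control-GFP), 0 to 8 (control-GFP, not knockout-GFP), 0 to 1 (knockout-Acsl4, not knockout-GFP), 30 to 245 (knockout-GFP, not knockout-Acsl4), 0 to 5 (knockout-Acsl4, not control-GFP) and 30 to 176 (control-GFP, not knockout-Acsl4). The differences ranged from −8.41 to 0.891 (knockout-GFP minus control-GFP; reversed at 0.891 without control-GFP 1 and 0.439 without knockout-GFP 1), −14.6 to 0.5003 (knockout-Acsl4 minus knockout-GFP; reversed at −13.5, −13.8, −14.6 and −2.73 without control-GFP 1, knockout-GFP 1, knockout-GFP 2 and knockout-Acsl4 1) and −14.8 to −2.45 (knockout-Acsl4 minus control-GFP). Without both libraries with Acsl4 peaks there were 104 candidates and 0 repeat-like regions, 23.1% of candidates in gene bodies, a width of 418 bp, a percentile of 94.1 and 2.06% at a coding start. Of the 48 named regions, 28 to 47 stayed members without 1 library, 36 at equal list lengths and 17 without both. The causes were not tested.

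The replicate numbers come from the titles, in which the library numbered knockout-Acsl4 2 also carries the code KA3. Deviations of calls from the group mean, over all regions, had correlations between same-numbered libraries of −0.171, −0.233 and 0.280 for the 3 comparisons. With 2 libraries per group each value compares 1 contrast of unlike list lengths with another. It therefore cannot show whether the numbers pair the libraries. With the replicate block the differences of −6.19, 0.0444 and −6.15 had exact sign-flip permutation p of 0.5, 1 and 0.5, the smallest possible being 0.5. Crossed numbers left every difference as it was, which they must, since a difference of group means does not depend on the pairing.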
